A study of Danio rerio with 24 samples.

Results

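The 10 genes krt4, krt5, cyt1, epcam, lye, icn, icn2, s100a11, anxa1c and foxq1a, which mark the epidermis and its outer layer, the periderm, were read by name from the 25067 genes of the expression table across 24 libraries. They were chosen by name, with earlier results of these data known, and not by a threshold on these values. Poly(A) RNA had been sequenced from sorted zebrafish cells, in 12 groups of 2 libraries. Embryonic cells came from tails of fish carrying 2 transgenes, kdrl:mCherry and CD41:GFP, of which kdrl:mCherry marks endothelium and CD41:GFP marks hematopoietic stem and progenitor cells and also thrombocytes. Cells labelled endothelial (EC), hematopoietic stem and progenitor (HSPC) and double negative (DN) were sorted at 36 hours post fertilization (hpf) and at 3 and 4 days post fertilization (dpf), and DN cells also at 52 hpf. At 3 months post fertilization (mpf), HSPC and DN cells came from kidney marrow of fish carrying CD41:GFP. The labels name no mutant, treatment, clutch or sort gate. They do not say that the 2 libraries of a group came from separate sorts. Each p-value thus rests on the variation within such pairs, pooled over the 12 groups, which may be technical. Titles name the caudal hematopoietic tissue, the embryonic blood-forming tissue of the tail, from 52 hpf on and not at 36 hpf, so stage and dissection cannot be told apart in comparisons with 36 hpf.

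The skin of a zebrafish embryo has an outer periderm, a sheet of flat cells that seals the animal from the water, over a basal layer that rests on the basement membrane. Keratins build the filaments of these cells, Epcam holds epithelial cells together, and small S100 proteins and annexins bind calcium and membranes. Skin covers the tail from which the embryonic cells were sorted, and neither reporter is a skin reporter.

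All values are FPKM, read counts scaled to gene length and library depth, so levels of different genes are compared per length, and pairs of values give replicate 1 first. Libraries held between 1741360 and 21338170 recovered reads. The EC library of replicate 2 at 4 dpf had 1741360 reads over 2483 genes above 0, and the HSPC library of replicate 2 at 4 dpf had 11265 genes above 0 and 43.85% of its FPKM in mitochondrial genes. These are called the low-complexity libraries, and results that rest on them are also given without them. The HSPC libraries at 3 dpf also had few genes above 0, at 13459 and 13274, against 20520 and 19859 in HSPC at 36 hpf. They are not counted among the low-complexity libraries, and the part of this in the low 3 dpf levels was not tested. The genes behind the reporters were low at 36 hpf, itga2b (the CD41 gene) being at 0.428 and 0 FPKM in HSPC libraries against 6.54 and 7.98 at 3 dpf. The endothelial receptor gene kdrl was at 5.16 and 3.68 FPKM in EC libraries at 36 hpf and at 0.333 and 0.323 at 3 dpf. The neutrophil lysozyme gene lyz was at 9112 and 8522 in the same 3 dpf libraries. At 4 dpf kdrl was at 0.163 FPKM in EC replicate 1 and 0 in low-complexity replicate 2. The HSPC label at 36 hpf and the EC labels at 3 and 4 dpf were thus not borne out by their own reporter genes. In HSPC, EC and DN libraries at 36 hpf, coro1a was at 45.9 and 40.5, 74.2 and 87.8, then 0.831 and 2.63 FPKM. myb was at 31.4 and 20.7, 19.2 and 23.1, then 6.40 and 7.35 in the same order. For both, genes of the HSPC and thrombocyte list, HSPC libraries were above DN libraries. EC libraries were above HSPC for coro1a and overlapped HSPC for myb. itga2b levels under the EC label at 3 dpf, 6.55 and 5.72, overlapped those under HSPC. myb, a gene of the HSPC and thrombocyte list, reached 271 and 227 there, against 294 and 291 under HSPC. lyz was also high under the HSPC label at 3 dpf, at 3949 and 3683. How far these labels separated cell types at 36 hpf or 3 dpf was not tested. At 3 dpf the endothelial gene fli1a was at 31.7 and 32.7 in EC libraries, 48.6 and 33.8 in HSPC libraries and 0.526 and 0.711 in DN libraries.

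Summed over the 10 genes, epidermal transcripts were most abundant in the HSPC-labelled libraries at 36 hpf, not in the DN libraries. The summed level of the 10 genes was 18451 and 19734 FPKM in HSPC libraries, 8662 and 10161 in EC libraries and 9479.8 and 10630.2 in DN libraries at 36 hpf. This was 3.28% and 3.49% of all FPKM in the HSPC libraries. FPKM of all genes summed to 562199.5 and 565335.6 in these HSPC libraries and 442029.9 and 444469.3 in DN. As shares of all FPKM, HSPC and DN thus differed less than the sums did. krt4 alone made up 48.3% and 49.93% of the sum of the 10 genes in HSPC and 54.91% and 56.47% in DN. At 3 dpf the order was turned round, with 189 and 184 FPKM in HSPC libraries, 386 and 407 in EC libraries and 1347 and 3023 in DN libraries. By group mean, 8 of the 10 genes were highest in HSPC at 36 hpf, krt5 was highest in DN at 52 hpf and epcam was highest in DN at 4 dpf.

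**Figure D1:**
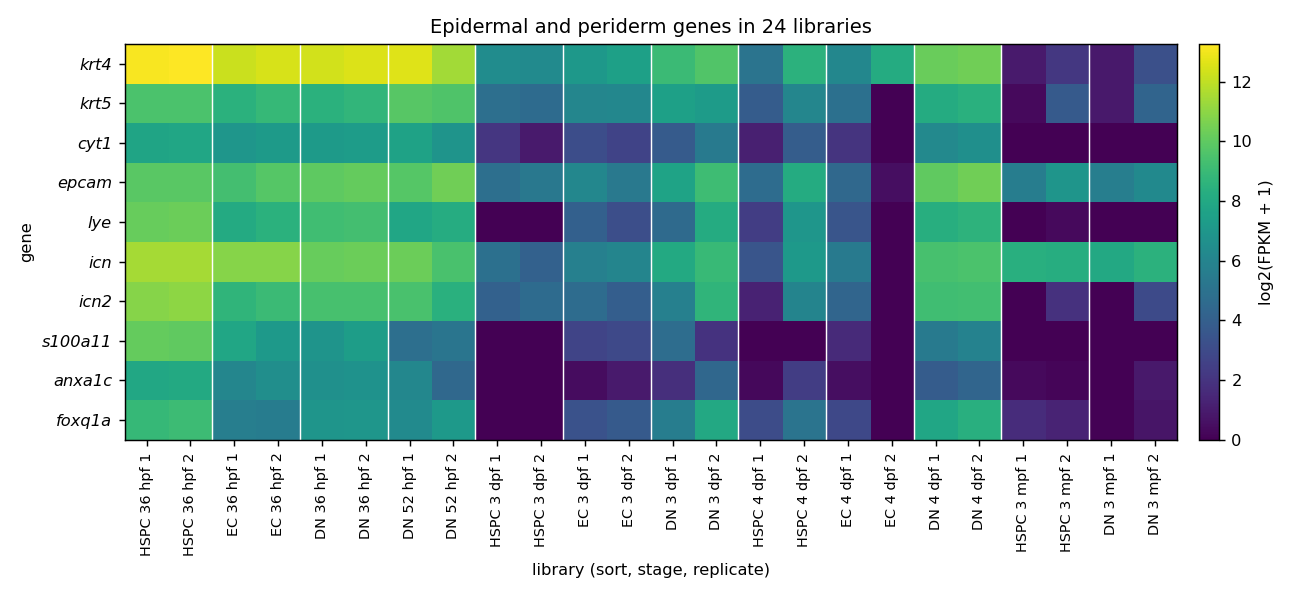
Level of the 10 epidermal and periderm genes (vertical axis) in each of the 24 libraries (horizontal axis, sort, stage and replicate), coloured by log2(FPKM + 1). The 36 hpf libraries of all sorts and the DN libraries at 52 hpf are bright, and the HSPC and EC libraries at 3 and 4 dpf are darker. HSPC replicate 2 at 4 dpf is the brighter of its pair for most genes. DN libraries are brighter than HSPC and EC at 3 and 4 dpf for most genes, and in kidney icn and epcam are the brightest.

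Among the keratins, krt4, whose promoter is widely used to drive transgenes in zebrafish surface epidermis, was the most abundant of the 10 genes in all embryonic groups at 36 and 52 hpf. It stood at 8912 and 9854 FPKM in HSPC libraries, 4677 and 5668 in EC libraries and 5206 and 6002 in DN libraries at 36 hpf, compared with 6336 and 2783 in DN at 52 hpf. At 3 dpf it was at 85.2 and 80.2 in HSPC libraries, 132 and 187 in EC libraries and 519.7 and 800.1 in DN libraries. The HSPC libraries were above all others at 36 hpf and below all others at 3 dpf. At 4 dpf krt4 was at 34 and 371 in HSPC libraries, 68.6 and 289.8 in EC libraries and 1212 and 1357 in DN libraries, and in kidney at 0.930 and 3.51 in HSPC libraries and 0.849 and 8.39 in DN libraries. The replicates of HSPC and of EC at 4 dpf differed more than the 2 sorts did, and both stayed below DN.

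krt5, another keratin of the same filament type as krt4, did not peak with it. Its level was 899 and 772 FPKM in DN at 52 hpf, against 729 and 737 in HSPC libraries, 358 and 469.6 in EC libraries and 360.1 and 418 in DN libraries at 36 hpf. At 3 dpf it was at 27.3 and 24.1 in HSPC libraries, 68.1 and 68.4 in EC libraries and 187 and 157 in DN libraries. Both DN libraries at 52 hpf were above every other library for krt5, and the EC and DN libraries at 36 hpf overlapped. In later sorts krt5 was at 13.7 and 67.2 in HSPC libraries, 29.1 and 0 in EC libraries and 286 and 338 in DN libraries at 4 dpf, and at 0.284 and 12.4 and 0.886 and 18.6 in kidney HSPC and DN. cyt1, a keratin of the partner type found in embryonic skin, was at 211 and 233 FPKM in HSPC libraries, 123 and 151 in EC libraries and 150.5 and 158 in DN libraries at 36 hpf, with HSPC above both others and EC and DN overlapping. At 3 dpf cyt1 was at 3.23 and 0.972 in HSPC libraries, 7.74 and 5.33 in EC libraries and 13.1 and 43.2 in DN libraries, and at 4 dpf it was at 73.8 and 95.0 in DN, above every other library of that stage.

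Of the surface proteins, epcam encodes the epithelial cell adhesion molecule and is present on many epithelia besides skin. It was at 931 and 935 FPKM in HSPC libraries, 622 and 857 in EC libraries and 1018 and 1104 in DN libraries at 36 hpf, the only one of the 10 genes with both DN libraries above both HSPC libraries there. In DN it was at 880.3 and 1334 at 52 hpf, then 207 and 563 at 3 dpf and finally 1059.9 and 1357 at 4 dpf. The DN libraries at 36 hpf, 52 hpf and 4 dpf overlapped, so no order holds among them. epcam was at 28.2 and 38.1 in HSPC and 68.8 and 39.8 in EC at 3 dpf, and at 48.3 and 121 in kidney HSPC and 49.4 and 77.5 in kidney DN.

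lye, a gene of the Ly6 family named for its expression in epidermis, was at 1171 and 1227 FPKM in HSPC libraries, 279 and 357 in EC libraries and 592 and 629 in DN libraries at 36 hpf. At 3 dpf lye was listed at 0 in both HSPC libraries, where 3 reads would have given 0.403 and 0.422 FPKM. It was at 15.5 and 8.13 in EC libraries and 22.7 and 281 in DN libraries at that stage. The 2 DN libraries at 3 dpf were thus far apart, and both lay above both EC libraries. At 4 dpf lye was at 4.32 and 123 in HSPC libraries, 10.5 and 0 in EC libraries and 316 and 382 in DN libraries, and it was at or near 0 in all 4 kidney libraries.

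The calcium-binding group holds icn and icn2, which encode the S100-like protein ictacalcin and its sister and lie next to each other in the RefSeq annotation with 0 annotated genes between them, s100a11, another S100 gene, and anxa1c, an annexin gene. icn was at 2817 and 2812 FPKM in HSPC libraries, 1849 and 1855 in EC libraries and 1142 and 1251 in DN libraries at 36 hpf, compared with 28.6 and 16.7, 53.6 and 63.5 and 265 and 484 in the same order at 3 dpf. For icn2 the HSPC, EC and DN values were 1840.2 and 2098, 407 and 526, then 674 and 670.1 at 36 hpf. They were 16.2 and 24, 25.2 and 14.7, then 54.6 and 415 at 3 dpf. For both genes the HSPC libraries were above all others at 36 hpf, while at 3 dpf HSPC and EC overlapped for icn2 but not for icn. In kidney the neighbours parted, icn being at 328 and 309.8 FPKM in HSPC libraries and 258 and 365 in DN libraries, and icn2 at 0 and 2.68 and 0 and 6.77.

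s100a11 was at 1116 and 1029.9 FPKM in HSPC libraries, 229 and 138 in EC libraries and 117 and 164 in DN libraries at 36 hpf. EC and DN overlapped, and both HSPC libraries were above both. It was listed at 0 in all HSPC libraries at 3 and 4 dpf and in all 4 kidney libraries, while DN held 27.8 and 35.3 FPKM at 52 hpf, then 25.5 and 2.87 at 3 dpf and finally 43.5 and 58.8 at 4 dpf. anxa1c was among the less abundant of the 10, at 251 and 269 FPKM in HSPC libraries, 68.1 and 91.5 in EC libraries and 102 and 108 in DN libraries at 36 hpf. At 3 dpf anxa1c was listed at 0 in both HSPC libraries and was at 0.355 and 0.921 in EC libraries and 2.42 and 20.6 in DN libraries. The DN values were 70.6 and 21.4 at 52 hpf, with no overlap with 36 hpf, and 13.5 and 19 at 4 dpf.

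foxq1a, the only transcription factor gene of the set, encodes a forkhead protein. It was at 473 and 538 FPKM in HSPC libraries, 50.1 and 47.2 in EC libraries and 119 and 125 in DN libraries at 36 hpf, with no overlap between the 3 sorts. In DN cells it was at 81.6 and 145 at 52 hpf, then 49.0 and 256 at 3 dpf and finally 231 and 331 at 4 dpf, so the 4 dpf libraries were above both at 36 hpf and both at 52 hpf. In HSPC libraries it was listed at 0 at 3 dpf, was at 7.39 and 33.6 at 4 dpf and at 2.19 and 1.52 in kidney.

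The first comparison asked how the 3 sorts differed at 36 hpf. s100a11 was higher in HSPC than in DN libraries, by 2.94 ± 0.73 on the log2(FPKM + 1) scale (± standard error, limma with Benjamini-Hochberg adjustment over 21024 genes, adjusted p = 0.0183), or 7.63-fold in mean FPKM. It was the only one of the 10 genes called, a call needing an adjusted p under 0.05 together with a log2 change of size 1 or more, where 7.28% of all genes tested were called in either direction. Both HSPC libraries were above both DN libraries for 9 of the 10 genes, which held for 33.0% of all genes tested. Next to s100a11, the mean fold of HSPC over DN was 4.14 for foxq1a, 2.93 for icn2, 2.48 for anxa1c, 2.35 for icn, 1.96 for lye, 1.89 for krt5, 1.67 for krt4, 1.44 for cyt1 and 0.879 for epcam. The median log2 fold change over the 10 genes was 1.1, against 0.0 over all genes tested. In bulk libraries, more epidermal cells and more of a transcript per epidermal cell cannot be told apart.

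**Figure D2:**
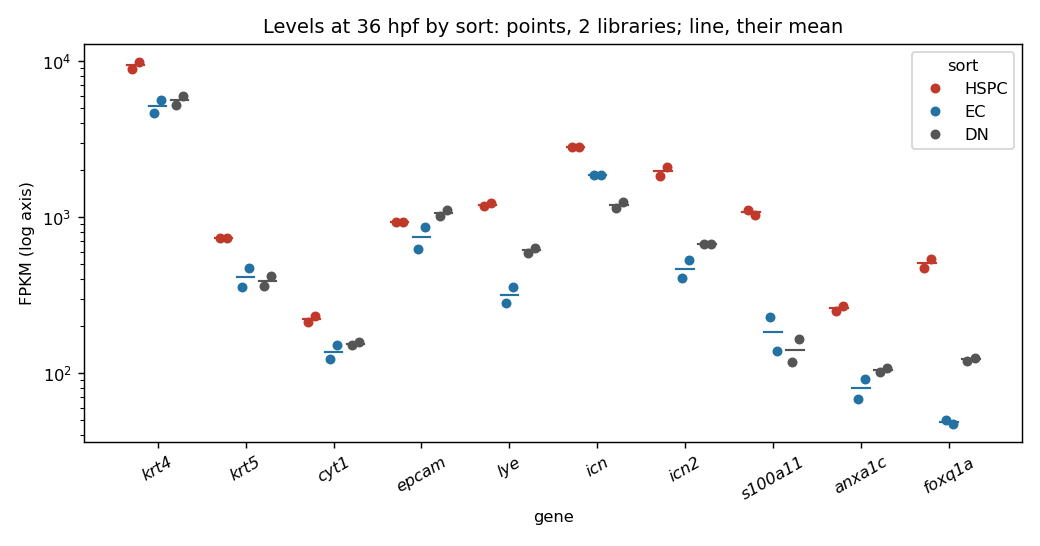
FPKM at 36 hpf (vertical, log axis) of the 10 genes (horizontal axis) in HSPC, EC and DN libraries; points are the 2 libraries of a sort and the short line is their mean. HSPC points lie above the other 2 sorts for 9 genes, epcam being the exception, and the gap is widest for s100a11 and foxq1a.

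Against EC, both HSPC libraries at 36 hpf were above both EC libraries for all 10 genes, which held for 19.2% of all genes tested, with folds of the means of 10.4 for foxq1a, 5.84 for s100a11, 4.22 for icn2, 3.77 for lye and 3.26 for anxa1c. No gene of the 10 was called by limma, with 3 at an unadjusted p under 0.05 (anxa1c, foxq1a and s100a11) and 0 called by limma-voom on recovered reads. Of all genes, 1.36% were called in either direction. foxq1a stood at 3.35 ± 0.89 (adjusted p = 0.0798) and krt4 at 0.86 ± 0.91 (adjusted p = 1). EC against DN showed a mixed picture, as icn was above DN in both EC libraries, icn2, epcam, lye, anxa1c and foxq1a were below, and krt4, krt5, s100a11 and cyt1 overlapped. Of all genes, 30.2% were below DN in both EC libraries. None was called by limma, none had an unadjusted p under 0.05 and 0 were called by limma-voom, where 3.33% of all genes were called.

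The standard error of each gene was pooled over all 24 libraries, and the HSPC and EC pairs at 4 dpf, which lay far apart for these genes, went into it. The shares of all genes given above come from the fit on all 24 libraries and not from the alternatives below. A higher count in an alternative thus cannot be told here from a rise over all genes. Fitted on the 36 hpf libraries alone, an alternative chosen after seeing the data, 5 genes were called higher in HSPC than in DN (anxa1c, foxq1a, icn, icn2 and s100a11), 5 higher in HSPC than in EC (anxa1c, foxq1a, icn2, lye and s100a11) and 1, foxq1a, lower in EC than in DN. Without both low-complexity 4 dpf libraries, the counts were 3, 2 and 0. The s100a11 call against DN was lost when any 1 of the 4 libraries was left out, at a pseudocount of 0.1, with a common FPKM sum and by limma-voom.

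Other cells' transcripts were high in the same libraries. The summed level of 13 skin ionocyte genes, ionocytes being the salt-transporting cells of embryonic skin, was 1226 and 1252 FPKM in HSPC libraries, 410.0 and 520.3 in EC libraries and 338 and 374 in DN libraries at this stage, and atp1b1b, a sodium pump subunit of ionocytes, was at 676 and 721, 114 and 165, then 31.8 and 54.8 in the same order. Skeletal muscle genes, 21 in the list and all above 0, summed to 6479 and 7185 FPKM in HSPC libraries, 3992 and 4563 in EC libraries and 2944 and 4649 in DN libraries. Neural genes went the other way, at 600.3 and 644 in HSPC libraries and 2859.9 and 2582 in DN libraries. Mitochondrial genes took 25.16% and 25.38% of FPKM in HSPC libraries, 11.14% and 10.19% in EC libraries and 7.486% and 8.046% in DN libraries. The part of these in the epidermal levels was not tested.

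The next question was how the genes changed between 36 hpf and 3 dpf within a sort. In HSPC libraries all 10 genes were called lower, where 19.6% of all genes tested were called lower. The largest decreases on the log2 scale were in lye (-10.23 ± 1.25, adjusted p = 1.6e-05), s100a11 (-10.07 ± 0.73, adjusted p = 1.6e-07) and foxq1a (-8.98 ± 0.89, adjusted p = 2.8e-06), and the smallest in krt5 (-4.78 ± 1.29, adjusted p = 0.0114) and epcam (-4.79 ± 1.05, adjusted p = 0.00261). For the genes that kept reads, the 36 hpf mean was 124-fold the 3 dpf mean for icn, 113-fold for krt4, 106-fold for cyt1, 98.0-fold for icn2, 28.5-fold for krt5 and 28.1-fold for epcam. For those listed at 0 in both 3 dpf libraries, with a floor of 3 reads in each library, the 36 hpf level was at least 2910-fold higher for lye, 2260-fold for foxq1a, 1590-fold for s100a11 and 1380-fold for anxa1c.

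With any 1 of the 4 HSPC libraries left out, 9 of the 10 calls held, krt5 being the one lost each time. The median log2 change over the 10 genes was -6.88, set by icn and krt4, which kept reads, against -0.31 over all genes tested. Muscle genes, with all 21 called lower, and neural genes, with all 14 called lower, moved in the same comparison, muscle sums going from 6479 and 7185 to 22.3 and 19.8 FPKM, and their part was not tested. Of 13 ionocyte genes, 9 were called lower, where 19.6% of all genes tested were.

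In EC libraries 8 of the 10 genes were called lower, where 11.7% of all genes tested were called lower. anxa1c changed by -5.63 ± 0.80 (adjusted p = 1.5e-04), krt4 by -5.03 ± 0.91 (adjusted p = 0.00109) and icn by -4.96 ± 1.19 (adjusted p = 0.00897). lye, s100a11, icn2, cyt1 and epcam also fell, with log2 changes between -4.69 and -3.78. foxq1a (-2.08 ± 0.89, adjusted p = 0.156) and krt5 (-2.57 ± 1.29, adjusted p = 0.251) did not pass, though both libraries at 36 hpf were above both at 3 dpf. The count was 4 without replicate 1 or without replicate 2 of EC at 36 hpf, 4 without replicate 1 and 5 without replicate 2 of EC at 3 dpf, 3 at a pseudocount of 0.1, and 10 without both low-complexity 4 dpf libraries.

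DN libraries over the same interval gave a yardstick. Both DN libraries at 36 hpf were above both at 3 dpf for 9 genes, which held for 25.4% of all genes tested, with folds of the means from 2.26 for krt5 to 9.9 for s100a11, while foxq1a overlapped at 0.801. The test of the difference between the changes called 6 genes as falling further in HSPC than in DN: foxq1a (-8.86 ± 1.26, adjusted p = 5.3e-04), lye (-7.33 ± 1.76, adjusted p = 0.0089), s100a11 (-6.28 ± 1.03, adjusted p = 0.00111), icn (-5.21 ± 1.68, adjusted p = 0.0432), anxa1c (-4.41 ± 1.14, adjusted p = 0.0132) and cyt1 (-3.63 ± 1.18, adjusted p = 0.044). Of all genes tested, 14.2% were called lower in that difference. For foxq1a, lye, s100a11 and anxa1c, listed at 0 in both HSPC libraries at 3 dpf, the size of the difference depends on the pseudocount. krt4 stood at -3.69 ± 1.28 (adjusted p = 0.0596) and krt5 at -3.61 ± 1.83 (adjusted p = 0.221). With replicate number added to the fit, krt4 was called and cyt1 was not. Of 17 alternatives, icn was called in 5 and cyt1 in 6. The count was 2 (foxq1a and s100a11) without DN replicate 2 at 3 dpf, which held the higher epidermal sum of that pair, and 10 without both low-complexity 4 dpf libraries.

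For EC against DN the difference of change called 0 of the 10 genes by limma, 0 had an unadjusted p under 0.05 and 0 were called by limma-voom, where 3.58% of all genes were called. The values ran from -3.23 ± 1.68 for icn to -0.85 ± 1.03 for s100a11 and were below 0 for all 10 genes, though s100a11 was at 0.54 without DN replicate 1 at 3 dpf. The HSPC and EC differences share the DN libraries, so they are not independent of each other. Without both low-complexity 4 dpf libraries, epcam and icn were called.

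**Figure D3:**
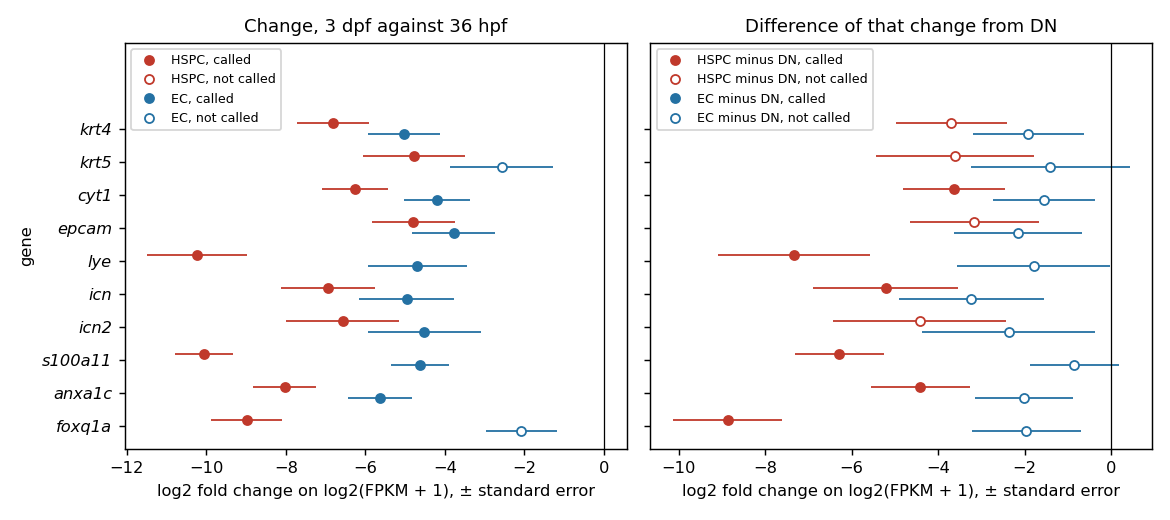
Left, log2 fold change of each gene (vertical axis) from 36 hpf to 3 dpf in HSPC and EC; right, that change minus the change in DN; bars are ± the standard error from limma, filled points are called and open points are not. All HSPC points lie left of -4 in the left panel, and in the right panel foxq1a, lye and s100a11 lie farthest left for HSPC while no EC point is called.

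At 3 dpf the question was how far the reporter-positive sorts differed from DN. Both HSPC libraries were below both DN libraries for all 10 genes, which held for 48.4% of all genes tested. Of the 10, 8 were called lower, where 23.5% of all genes tested were called lower. In the same test 14 of 14 neural genes (median -7.27) and 15 of 21 muscle genes (median -3.92) were called lower, beside a median of -3.23 for the 10 genes, and their part was not tested. The log2 fold change was -6.82 ± 0.89 for foxq1a (adjusted p = 8.5e-06), for lye -6.35 ± 1.25 (adjusted p = 6.0e-04), and for krt4 -2.95 ± 0.91 (adjusted p = 0.019). icn2 (-2.88 ± 1.42, adjusted p = 0.146) and krt5 (-2.70 ± 1.29, adjusted p = 0.135) did not pass. The count was 4 without HSPC replicate 2 and 3 (foxq1a, lye and s100a11) without DN replicate 2.

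EC against DN at 3 dpf called anxa1c (-2.41 ± 0.80, adjusted p = 0.0367) and foxq1a (-3.27 ± 0.89, adjusted p = 0.0111) lower, 2 of 10 genes, where 17.1% of all genes tested were called lower. Both EC libraries were below both DN libraries for 9 genes, which held for 41.6% of all genes tested, and s100a11 overlapped. The count was 0 without EC replicate 1, 1 without EC replicate 2, 0 without DN replicate 2, 0 by limma-voom and at a pseudocount of 0.1, and 8 without both low-complexity 4 dpf libraries. HSPC against EC called 0 genes by limma, with 3 at an unadjusted p under 0.05 (foxq1a, lye and s100a11), and the same 3 were called lower by limma-voom. Of all genes, 0.866% were called in that comparison. Both HSPC libraries were below both EC libraries for 9 of the 10 genes, which held for 38.0% of all genes tested, and icn2 overlapped.

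At 4 dpf all 10 genes were again lower in both libraries of HSPC and of EC than in both of DN, which held for 41.0% of all genes tested in HSPC and 48.2% in EC. HSPC against DN called 9 lower, with 21.6% of all genes called lower, from -5.69 ± 0.73 for s100a11 (adjusted p = 1.1e-05) to -2.74 ± 0.80 for anxa1c (adjusted p = 0.0164), and krt5 did not pass (-3.30 ± 1.29, adjusted p = 0.0725). The HSPC replicates lay far apart, with a summed level of 97.1 and 1107 FPKM, and muscle genes summed to 40.6 and 1153 in the same pair. Without HSPC replicate 1 the count was 3, without HSPC replicate 2 it was 9, and without DN replicate 2 it was 4, and at a pseudocount of 0.1 it was 5. EC against DN called all 10 lower, with 34.6% of all genes called lower, but EC replicate 2 held krt4 at 289.8 FPKM from 1246 reads, epcam at 1 read and the other 8 genes at 0. With libraries weighted by their estimated quality, an alternative chosen after seeing the data, 0 were called there. The weights came out equal within each pair, at 0.0568 for both EC libraries at 4 dpf. They thus did not set low-complexity replicate 2 apart from replicate 1. EC replicate 1 alone held all 10 genes above 0, from 0.388 FPKM for anxa1c to 68.6 for krt4, below both DN libraries each time.

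Within the DN sort the genes could be followed over 4 embryonic stages. From 36 to 52 hpf none of the 10 was called by limma, 1 (s100a11) had an unadjusted p under 0.05 and 0 were called by limma-voom, where 1.95% of all genes were called. krt5 was above its 36 hpf values in both 52 hpf libraries (1.1 ± 1.29, adjusted p = 0.942), lye, s100a11 and anxa1c were below, as were 41.5% of all genes tested, and the other 6 overlapped. From 52 hpf to 3 dpf cyt1 fell (-2.61 ± 0.83, adjusted p = 0.0437), the 1 gene called, where 13.5% of all genes were called. krt4 stood at -2.70 ± 0.91 (adjusted p = 0.0563), and both 52 hpf libraries were above both 3 dpf libraries for 7 genes, which held for 28.1% of all genes tested, with icn2, lye and foxq1a overlapping. The cyt1 call was lost without either 52 hpf library, without DN replicate 1 at 3 dpf, at a pseudocount of 0.1, with a common FPKM sum and by limma-voom, and without DN replicate 2 at 3 dpf 2 genes were called. The cyt1 call was also lost with replicate number added to the fit, where krt4 was called. lye stood at -1.67 ± 1.25 and at 0.11 without DN replicate 1 at 3 dpf, so its direction rested on that library.

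**Figure D4:**
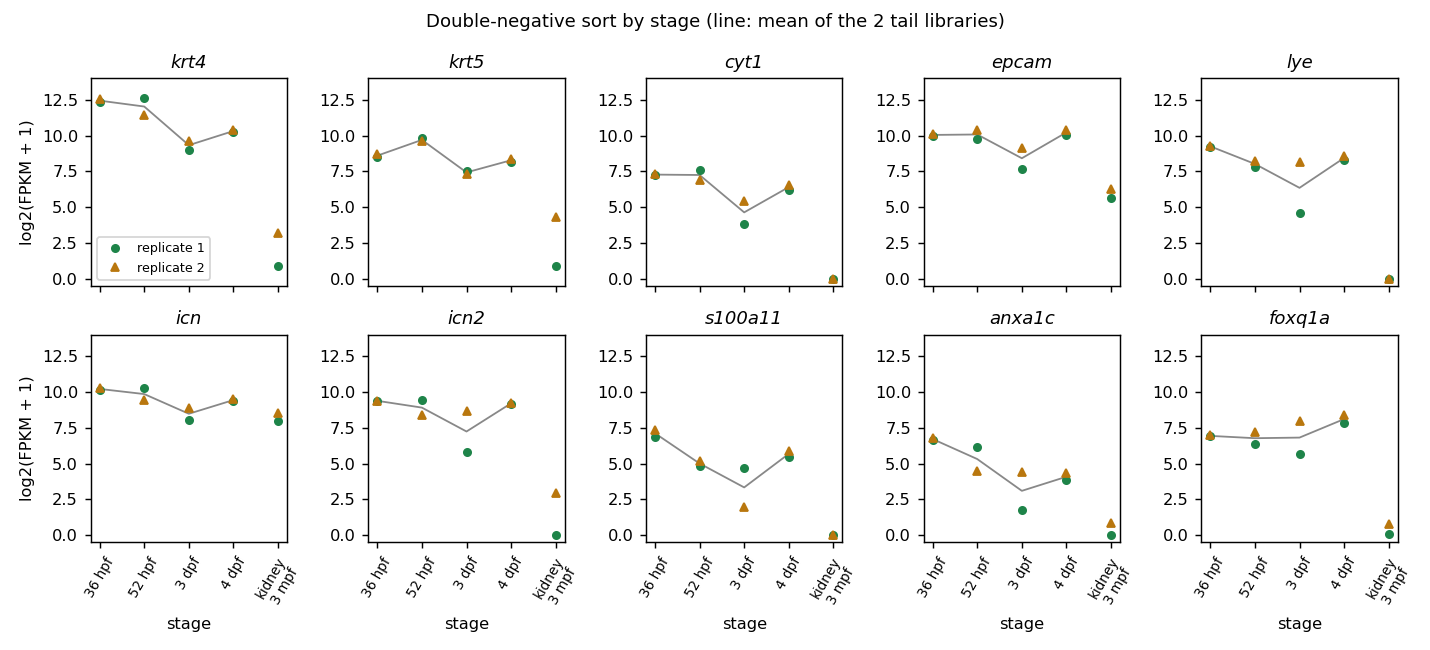
log2(FPKM + 1) of each gene (one panel each) in the DN sort by stage (horizontal axis); circles and triangles are the 2 libraries and the line joins the means of the tail libraries. Most genes are lowest in the tail at 3 dpf, where the replicates are far apart for lye and icn2, foxq1a is highest at 4 dpf, and in kidney icn and epcam remain above the other 8.

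From 3 to 4 dpf the mean of each of the 10 genes was higher in DN at 4 dpf, and both 4 dpf libraries were above both 3 dpf libraries for 8 genes, which held for 24.8% of all genes tested, with anxa1c and foxq1a overlapping. Without DN replicate 1 at 3 dpf anxa1c stood at -0.34 on the log2 scale, against 0.98 ± 0.80 with all libraries. None was called by limma, 2 (cyt1 and s100a11) had an unadjusted p under 0.05 and 0 were called by limma-voom, where 0.2% of all genes were called. The folds of the means were 3.6 for s100a11, 3.14 for epcam, 3.0 for cyt1 and 1.95 for krt4. At 4 dpf the set had not returned to its 36 hpf proportions, since krt4 was 4.36-fold and anxa1c 6.45-fold higher at 36 hpf, epcam overlapped and foxq1a was 0.434-fold. Muscle sums in DN went from 632 and 952 to 5249.7 and 3898 FPKM between 3 and 4 dpf, and their part was not tested.

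The kidney marrow, the adult blood-forming organ, was compared to see which of the genes were also measured outside the embryonic tail. icn was at 328 and 309.8 FPKM in HSPC libraries and 258 and 365 in DN libraries and made up between 68.62% and 86.31% of the summed level of the 10 genes, against 9.067% to 21.4% in the embryonic libraries other than the low-complexity EC library. epcam was next, at 48.3 and 121 and 49.4 and 77.5 FPKM, and the other 8 genes were at 18.6 FPKM or less. HSPC against DN called 0 by limma, none had an unadjusted p under 0.05 and 0 were called by limma-voom, where 7.6% of all genes were called. Against 3 dpf HSPC, icn rose (3.80 ± 1.19, adjusted p = 0.0377) and krt4 fell (-4.82 ± 0.91, adjusted p = 0.00167), 1 gene of 10 in each direction. Of all genes tested, 14.1% were called higher and 0.433% lower, or 14.5% in either direction. epcam stood at 1.2 ± 1.05 (adjusted p = 0.526). Leaving out any 1 of the 4 libraries, a pseudocount of 0.1, no filter on low values or median-of-ratios scaling ended the icn call, and the krt4 call held in each of these.

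Kidney DN against 4 dpf tail DN called 9 of the 10 lower, where 17.2% of all genes were called lower, from -8.44 ± 1.25 for lye (adjusted p = 3.6e-05) and -8.27 ± 0.91 for krt4 (adjusted p = 1.2e-06) to -3.64 ± 0.80 for anxa1c (adjusted p = 0.0017). icn was the exception (-1.18 ± 1.19, adjusted p = 0.521), with both 4 dpf libraries still above both kidney libraries by 2.24-fold in the means. Organ, age and transgene differ together in the kidney comparisons and cannot be told apart.

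The genes did not move in fixed proportion. The level of krt5 per unit of krt4 was 0.0818 and 0.0748 in HSPC libraries, 0.0765 and 0.0829 in EC libraries and 0.0692 and 0.0696 in DN libraries at 36 hpf. Both DN ratios lay below the other 4. In DN the ratio was 0.142 and 0.277 at 52 hpf, then 0.361 and 0.197 at 3 dpf and finally 0.236 and 0.249 at 4 dpf, and it was 0.321 and 0.30 in HSPC and 0.517 and 0.366 in EC at 3 dpf. Every library from 52 hpf on, other than the low-complexity EC library with krt5 at 0, was above all 6 libraries at 36 hpf. In kidney both keratins were close to 0 and their ratio was not read.

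epcam per krt4 in DN was 0.196 and 0.184 at 36 hpf and 0.875 and 1.0 at 4 dpf, and foxq1a per krt4 was 0.0229 and 0.0209 and 0.191 and 0.244. Within 36 hpf these ratios did differ between sorts, epcam per krt4 being 0.104 and 0.0948 in HSPC and 0.133 and 0.151 in EC. s100a11 per krt4 was 0.125 and 0.104 in HSPC libraries, 0.0489 and 0.0244 in EC libraries and 0.0225 and 0.0274 in DN libraries. The epidermal profile of the HSPC libraries was thus higher in s100a11 and foxq1a and lower in epcam, per unit of krt4, than that of DN, with no overlap between libraries. icn2 per icn was 0.220 and 0.284 in EC, below 0.653 and 0.746 in HSPC libraries and 0.590 and 0.535 in DN libraries.

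Across the 12 group means of log2(FPKM + 1), which share libraries and depth for all genes, the correlation between pairs of the 10 genes ran from 0.534 (krt4 with icn) to 0.984 (icn2 with cyt1). cyt1 had the highest median correlation with the other 9, at 0.949, and icn the lowest, at 0.720. The genes outside the set with the group means most like the set's average were zgc:193505 (Pearson correlation 0.9897), si:cabz01007794.1 (0.9873), the claudin gene cldne (0.9834), the muscle actin gene acta1b (0.9816), zgc:110333 (0.9814), elovl7b, of the fatty acid elongase family (0.9813), si:zfos-1011f11.1 (0.9813), the tight junction gene oclna (0.9812), the prostaglandin synthase gene ptgs2a (0.9807) and si:dkey-221j11.3 (0.9794), each over 12 group means. zgc:193505 was at 1301 and 1468 FPKM in HSPC libraries, 232 and 273 in EC libraries and 494 and 579.8 in DN libraries at 36 hpf. elovl7b was at 1398 and 1528, 158 and 169 and 517 and 622 in the same order. acta1b, at 152 and 175, 143 and 165 and 107 and 167, is a muscle gene with nearly the same course over the groups.

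Wider lists of skin genes were read alongside. In HSPC from 36 hpf to 3 dpf, all 14 other keratins tested were called lower, as were 15 of 24 other S100 and annexin genes, all 21 junction and cornified envelope genes, 15 of 18 epidermal transcription and splicing regulators, 11 of 12 basal epidermis genes and 8 of 9 epidermal proteases and inhibitors, and none of these was called higher. Of all genes tested, 19.6% were called lower in that comparison. Medians of the log2 change of the lists were -5.19, -2.97, -4.92, -3.74, -3.18 and -4.11 in that order. cldnb, a skin claudin gene, was at 3155 and 3158 FPKM in HSPC libraries, 1189.5 and 1461 in EC libraries and 1629 and 1921 in DN libraries at 36 hpf, compared with 11.4 and 44.0 in HSPC at 3 dpf (-7.06 ± 1.13, adjusted p = 1.8e-04). krt8, a simple epithelial keratin, went from 732 and 728 to 6.27 and 3.59 (-6.98 ± 1.03, adjusted p = 8.2e-05). The basal hemidesmosome collagen gene col17a1a was at 14.3 and 10.8 FPKM in HSPC libraries at 36 hpf, against 1.22 and 2.41 at 3 dpf (-2.29 ± 0.59, adjusted p = 0.00866).

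In the test of HSPC against DN at 36 hpf, 2 of 14 other keratins were called higher, where 588 of 21024 genes tested were. None of the S100 and annexin, junction, regulator, basal or protease genes was called higher. The median log2 fold changes of these lists were 1.19, 0.94, 0.97, 0.85, 0.81 and 0.93, beside 1.1 for the 10 genes and 0.0 over all genes tested. For HSPC against EC at 36 hpf the medians were 0.00, 0.12, 0.59, 0.15, -0.03 and 0.67 in the same order. The 10 genes had a median of 1.28 in that comparison, and all genes tested one of -0.16. krt18, a simple epithelial keratin, was higher in both EC libraries than in HSPC and DN there, at 646 and 1027 FPKM in EC, 507 and 516 in HSPC libraries and 140.3 and 175 in DN libraries. cldni, krtt1c19e and col17a1a were highest in DN at 52 hpf, as krt5 was. cldni, another claudin gene, was at 1149 and 1919 FPKM there against 303 and 359 in DN at 36 hpf, and krtt1c19e, a basal keratin gene, was at 955 and 909.7 against 350.4 and 399. col17a1a was at 59.1 and 44.4 against 7.06 and 8.32 and was called higher (2.59 ± 0.59, adjusted p = 0.0317). It was the 1 gene of 12 basal genes called higher, where 215 of 21024 genes tested were.

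In kidney HSPC against 3 dpf HSPC, 3 other keratins were called higher and 2 lower of 14, and 7 of 24 other S100 and annexin genes were called higher and none lower, where 14.1% of all genes were called higher and 0.433% lower. krt8 was at 163 and 110.0 FPKM in kidney HSPC (4.54 ± 1.03, adjusted p = 0.00637) and s100a10b, an S100 gene, at 124 and 83.1 against 0 in both 3 dpf libraries (6.68 ± 1.01, adjusted p = 2.8e-04). krtt1c19e was called lower (-3.79 ± 0.95, adjusted p = 0.0123). Tight junction and envelope genes were called higher in 2 of 21 cases and lower in none.

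Lists of other tissues were read in the same libraries. The epidermal sum was 1347 and 3023 FPKM in DN at 3 dpf, when neural genes summed to 4519 and 4504 and muscle genes to 632 and 952. In the HSPC library of replicate 2 at 4 dpf, where the epidermal sum was 1107 FPKM, the muscle sum was 1153 and the ionocyte sum 273, against 97.1, 40.6 and 123 in replicate 1. Hatching gland genes, 7 of 11 found in the table, were highest in EC at 36 hpf, at 3382 and 2562 FPKM, with the hatching enzyme gene he1a at 1859 and 1361 in EC, 24.4 and 27.8 in HSPC libraries and 1.49 and 8.35 in DN libraries, an order that none of the 10 epidermal genes shared. The part of these tissues in the epidermal levels was not tested.

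**Figure D5:**
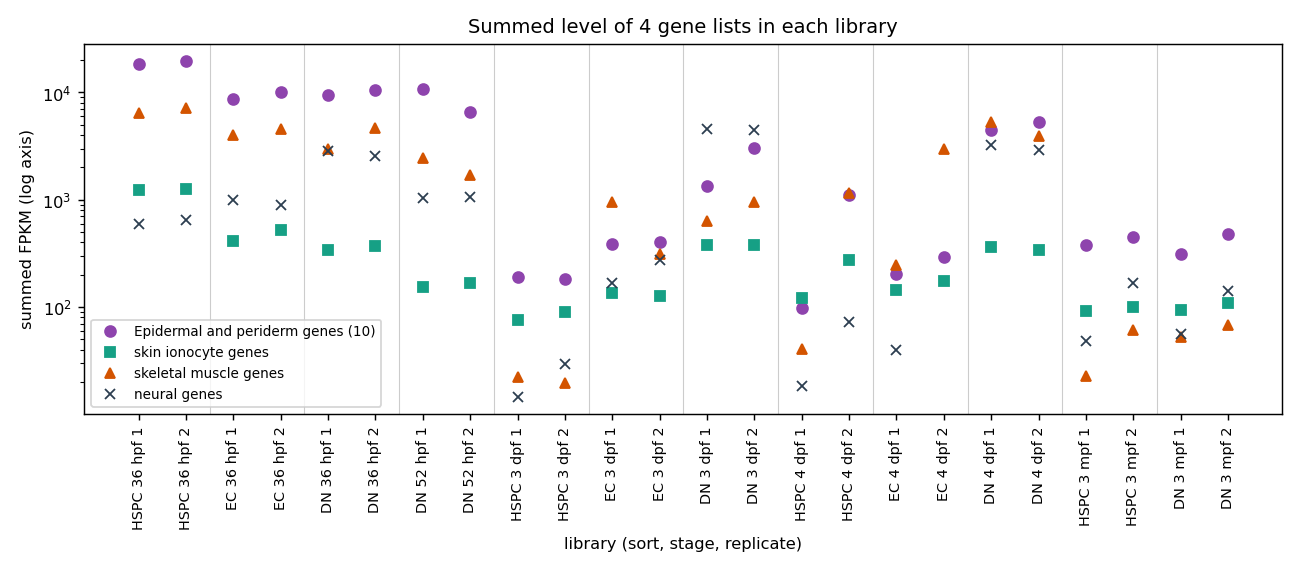
Summed FPKM (vertical, log axis) of the 10 epidermal and periderm genes and of skin ionocyte, skeletal muscle and neural lists in each library (horizontal axis); the neural sum of the low-complexity EC library at 4 dpf is 0 and is not drawn. The epidermal sum is highest in the HSPC libraries at 36 hpf and lowest in HSPC replicate 1 at 4 dpf, and in DN at 3 dpf it lies below the neural sum.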

How the data were processed

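The 24 libraries of poly(A) RNA from sorted cells form 12 groups of 2. The deposited values are FPKM, as the labels name them. FastQC, HISAT, HTSeq, DESeq2 and the build GRCz10 are named, per the submitters' processing notes, without versions or roles, and strand handling is not given in these sources. The table held 25067 genes. The FPKM values were whole multiples of what 1 read is worth: 23718 of 23718 genes above 0 in at least 3 libraries came out within 0.01 reads of whole numbers, 100.0% of their values, which gave the reads per library.

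Tests used limma 3.58.1 in R 4.3.3 on log2(FPKM + 1), as 12 group means in 1 fit with a mean-variance trend, on the 21024 genes that reached 1 FPKM in 2 or more libraries. A log2 fold change on this scale understates the change of low genes. Benjamini-Hochberg adjustment ran within each of 18 comparisons, over all genes tested, and a call needed an adjusted p under 0.05 together with a log2 change of size 1 or more. The tests were two-sided, and the fit was tested on simulated data. Tables and plots were made with Python 3.11.15, numpy 2.4.6, pandas 2.3.3 and matplotlib 3.10.9. Alternatives were pseudocounts of 0.1 and 5, no filter, median-of-ratios scaling, a common FPKM sum, a replicate block, limma-voom on recovered reads (21008 genes), each library left out in turn, and both low-complexity 4 dpf libraries left out. A fit on 36 hpf libraries alone and library weights were chosen after seeing the data. The library weights came out equal within each pair, so they rated groups and not single libraries. Floors for genes listed at 0 are 3 reads per library and cover counting error only. The 10 genes and the lists were chosen with earlier results of these data known. Beyond the 10, named genes are the 10 most like them over group means and the most abundant genes of each list, with reporter genes as a check of the labels. Reads of near-identical family members, such as icn and icn2 or the keratins, may have been split or shared by the counting. Of the 10 names, 10 were found in RefSeq and 9 among the Ensembl gene names. Endothelial and HSPC sorts at 52 hpf were not analysed here.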

Additional observations from a re-analysis of the deposited data

Results flagged for a closer look

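For 6 of the 10 genes the change from 36 hpf to 3 dpf differed between the HSPC and DN sorts in the limma test of the difference itself. The difference, HSPC minus DN on the log2(FPKM + 1) scale, was -8.86 for foxq1a, -7.33 for lye, -6.28 for s100a11, -5.21 for icn, -4.41 for anxa1c and -3.63 for cyt1. foxq1a, lye, s100a11 and anxa1c were listed at 0 in both HSPC libraries at 3 dpf, so the size of their differences depends on the pseudocount. Over the alternatives it ran from -13.57 to -6.57 for foxq1a, -11.14 to -5.12 for lye, -9.40 to -4.54 for s100a11 and -9.12 to -2.73 for anxa1c. Of all genes tested, 14.2% were called lower in that difference. Without DN replicate 2 at 3 dpf 2 of the 6 were called, foxq1a and s100a11, and of 17 alternatives icn was called in 5 and cyt1 in 6. Muscle and neural genes fell further in HSPC in the same test, with 13 of 21 and 14 of 14 called, as did 4 of 13 ionocyte genes, and their part in the epidermal differences was not tested.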

How the results depend on the processing

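The count of the 10 genes called was 8 for HSPC against DN at 3 dpf, 10 for HSPC from 36 hpf to 3 dpf, 0 for kidney HSPC against DN and 9 for kidney DN against 4 dpf DN, and each stayed within 1.5 times under every alternative other than leaving out 1 library. Elsewhere it moved, and the cause was not tested. At 36 hpf, HSPC against DN gave 1, and 0 at a pseudocount of 0.1, with a common FPKM sum and by limma-voom, 2 at a pseudocount of 5, 3 without both low-complexity libraries, 5 on 36 hpf libraries alone and 4 with library weights. EC against DN gave 0, and 1 on 36 hpf libraries alone and with library weights. HSPC against EC gave 0, and 2 at a pseudocount of 5 and without both low-complexity libraries, and 5 on 36 hpf libraries alone and with library weights. At 3 dpf, EC against DN gave 2, and 0 at a pseudocount of 0.1 and by limma-voom, 8 without both low-complexity libraries and 9 with library weights. HSPC against EC gave 0, and 3 at a pseudocount of 0.1, by limma-voom and with library weights, 2 under both scalings and 4 without both low-complexity libraries. At 4 dpf, HSPC against DN gave 9, and 5 at a pseudocount of 0.1, and EC against DN gave 10, and 0 with library weights. EC from 36 hpf to 3 dpf gave 8, and 3 at a pseudocount of 0.1. In DN, 52 against 36 hpf gave 0, and 1 at a pseudocount of 5 and without both low-complexity libraries, and 3 with library weights. DN at 3 dpf against 52 hpf gave 1, and 0 at a pseudocount of 0.1, with a common FPKM sum and by limma-voom, 3 at a pseudocount of 5 and with median-of-ratios scaling, 6 without both low-complexity libraries and 9 with library weights. DN at 4 against 3 dpf gave 0, and 3 with library weights. Kidney HSPC against 3 dpf HSPC gave 2, and 1 without a filter and with median-of-ratios scaling, 5 by limma-voom, 6 without both low-complexity libraries and 4 with library weights. The HSPC minus DN change gave 6, and 10 without both low-complexity libraries and with library weights. The EC minus DN change gave 0, and 2 and 6 under those settings.

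With 1 library left out, a lone sample being assumed to vary like the other groups, the counts ran from 3 to 6 for HSPC against DN at 3 dpf, 0 to 3 for EC against DN at 3 dpf, 3 to 9 for HSPC against DN at 4 dpf, 9 to 10 for EC against DN at 4 dpf, 4 to 5 for EC from 36 hpf to 3 dpf, 0 to 2 for DN at 3 dpf against 52 hpf, 8 to 9 for kidney DN against 4 dpf DN and 2 to 5 for the HSPC minus DN change. They were 9 each time for HSPC from 36 hpf to 3 dpf, 1 for kidney HSPC against 3 dpf HSPC and 0 for the others. Of the 180 log2 values of the 10 genes, 21 took either sign over the alternatives and none of these was called. Among values given in the text, leaving out DN replicate 1 at 3 dpf reversed lye from 52 hpf to 3 dpf (0.11, and -3.46 without replicate 2), anxa1c from 3 to 4 dpf (-0.34, and 2.31 without replicate 2) and s100a11 in the EC minus DN change (0.54, and -2.24 without replicate 2). Replicate numbers showed no general pairing of the libraries. Over 66 pairs of groups, same-numbered deviations correlated at -0.34 to 0.27, median 0.01, and 6 pairs were above 0.1. Pairs of groups within a stage were not read apart from the rest, so pairing within a stage was not tested. With the replicate block, HSPC against DN at 36 hpf gave 1 called gene and no count of the 10 moved, but krt4 was called in place of cyt1 both in DN from 52 hpf to 3 dpf and in the HSPC minus DN change. Rescaling moved the median of all genes by -0.575 to 0.31 on the log2 scale with a common FPKM sum and by -0.168 to 0.285 with median-of-ratios scaling. The planned edgeR test was not run. No share of all genes called is given here for the alternatives. A higher count there was thus not set against the count over all genes, and is not read as particular to the 10. With 2 libraries a group, low counts at 0 limit the folds to bounds.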
